A study of Mus musculus with 12 samples.

Results

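The 10 genes followed here are genes of the testis and germline: Fabp9, Meig1, Akap4, Tex11, Dppa3, Ddx4, Sycp3, Prm1, Prm2 and Tnp1. They were chosen by symbol, all 10 were found among the 27179 genes counted in every library, and 8 of the 10 passed the filter on low counts (Akap4 and Tnp1 did not). RNA was sequenced from sorted thymic epithelial cells of C57BL/6 mice in 12 libraries, 3 in each of 4 groups: cortical thymic epithelial cells (cTECs) of control and of HOIL-deficient mice, and MHC class II-high medullary cells (mTEChi) of both. HOIL is the ubiquitin ligase subunit encoded by Rbck1. By the design text, HOIL-deficient mice were Foxn1creT/+ HOILlox/lox and control mice were Foxn1cre+/+ Hoillox/lox. The genotype field labels the controls wild type instead, and the design text was followed here. By that text both carried floxed alleles and only the HOIL-deficient mice carried the Foxn1-driven Cre, which acts in thymic epithelium. Effects of the Cre transgene and of losing HOIL cannot be told apart in this design. Replicate 3 of both HOIL-deficient groups was labelled female and the other 10 libraries male, and the ages were not given in the labels.

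Medullary thymic epithelial cells transcribe genes that are otherwise restricted to other organs, germ cells included, and present their products to developing T cells, which is one basis of self-tolerance. Part of this ectopic expression depends on the nuclear regulator Aire and part on the transcription factor Fezf2. Each ectopic gene is typically on in a small share of the medullary cells, so a level in a bulk library is an average over cells with and without the transcript. In bulk RNA, fewer cells expressing a gene and less RNA per cell cannot be told apart. The 10 genes come from different steps of germ cell development. Dppa3 (Stella) marks primordial germ cells and oocytes, Ddx4 (Vasa) is the RNA helicase of germ granules, and Sycp3 and Tex11 act on meiotic chromosomes. Meig1, Akap4 and Fabp9 serve the spermatid, in building the sperm tail, in its fibrous sheath and in the perinuclear theca of the sperm head. Tnp1, Prm1 and Prm2 are the basic proteins that replace histones in the compacting sperm nucleus.

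Library totals ranged from 7941217 to 14274333 counts. The targeted gene, Rbck1, went from 213 ± 27.4 to 25.9 ± 6.19 CPM with HOIL deficiency in cTECs and from 117 ± 10.3 to 15.3 ± 6.91 CPM in mTEChi (CPM are counts scaled to the library total; mean ± SD, n = 3 here and below). Markers of the sorted cells followed the labels: the cTEC proteasome gene Psmb11 was at 3785 ± 548 CPM in control cTECs against 77.9 ± 27.1 in control mTEChi, and Aire at 0.846 ± 0.436 against 770.5 ± 196. Control mTEChi differed from HOIL-deficient mTEChi in RNA composition. Mitochondrial transcripts took 5.49 ± 3.03% of counts in control and 1.84 ± 0.113% in HOIL-deficient mTEChi, and the nuclear RNA Malat1 took 4.13 ± 0.931% and 0.851 ± 0.135% (exact permutation p = 0.1 for each, two-sided, the smallest that 3 against 3 allows). Control mTEChi replicate 1 had the highest mitochondrial share, 8.93%, so results in mTEChi are also given without it where that ends a call.

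Windows before the RefSeq start sites (build GRCm38.p6) were available for 7 of the 10 genes, not for Fabp9, Dppa3 and Tex11. The 4 shown were picked to illustrate how unlike the promoters can be of germline genes detected in the same bulk mTEChi libraries. In the windows of Akap4, Meig1 and Tnp1, which are not shown, none of the searched letters matched. Each line gives the 250 bases upstream of a listed start, 5′ to 3′ on the gene's strand, with capitals marking matches to searched motif letters on either strand. The Ddx4 window is chr13:112652311-112652560 (minus strand, upstream of a listed start inside the gene's span), that of Sycp3 chr10:88459337-88459586 (plus), that of Prm1 chr16:10796824-10797073 (minus) and that of Prm2 chr16:10792106-10792355 (minus).
Ddx4: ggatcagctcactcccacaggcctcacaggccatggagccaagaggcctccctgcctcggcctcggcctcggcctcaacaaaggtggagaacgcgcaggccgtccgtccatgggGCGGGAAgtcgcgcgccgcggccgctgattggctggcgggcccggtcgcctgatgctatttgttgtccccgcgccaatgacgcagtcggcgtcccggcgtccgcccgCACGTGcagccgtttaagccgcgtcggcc
Sycp3: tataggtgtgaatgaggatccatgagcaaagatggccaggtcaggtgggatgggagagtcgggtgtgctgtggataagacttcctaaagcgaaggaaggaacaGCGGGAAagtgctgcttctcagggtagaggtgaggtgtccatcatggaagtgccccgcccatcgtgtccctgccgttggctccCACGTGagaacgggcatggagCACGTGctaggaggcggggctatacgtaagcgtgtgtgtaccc
Prm1: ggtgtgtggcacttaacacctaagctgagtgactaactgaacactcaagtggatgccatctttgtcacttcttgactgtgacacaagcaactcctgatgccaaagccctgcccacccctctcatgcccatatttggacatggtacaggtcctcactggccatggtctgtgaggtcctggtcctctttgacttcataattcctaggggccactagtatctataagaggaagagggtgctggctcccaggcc
Prm2: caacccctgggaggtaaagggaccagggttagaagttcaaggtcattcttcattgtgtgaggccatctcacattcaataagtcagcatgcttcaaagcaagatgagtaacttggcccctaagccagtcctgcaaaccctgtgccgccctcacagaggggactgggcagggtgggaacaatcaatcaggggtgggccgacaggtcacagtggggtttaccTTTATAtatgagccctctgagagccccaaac

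The Ddx4 and Sycp3 windows were rich in CpG, with 31 and 12 CpG dinucleotides and 70.4% and 57.2% GC, against a median of 6 CpG and 52.4% GC over 32851 windows of the same length. Prm1 and Prm2 had 0 and 2 CpG in 51.6% and 52.8% GC. Of 5 sets of letters searched on both strands, the E-box CACGTG, bound by MAX and MGA, lay 29 bases before the Ddx4 start and 43 and 64 bases before the Sycp3 start, and 6.02% of all windows held it. The E2F letters TTCCCGC (printed as their reverse complement) lay 136 bases before the Ddx4 start and 147 before the Sycp3 start, and were in 3.82% of windows. The TATA letters TATAAA, in 12.4% of windows, lay 31 bases before the Prm2 start on the opposite strand. The cAMP response element TGACGTCA (1.55% of windows) and the MYB letters AACNGTTA (1.25%) were not in these 4 windows. No matches in these windows overlap each other, and a match describes the sequence, not binding.

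The 10 genes covered a wide range of levels in control mTEChi. Per length (CPM divided by the gene length in kilobases, RPKM), Fabp9 stood at 359 ± 178 and Dppa3 at 216 ± 25.7, and these overlapped between libraries. Meig1 followed at 12.6 ± 4.66, above every library of the genes below it. Prm2 (4.33 ± 1.96), Prm1 (3.64 ± 1.99), Tex11 (2.26 ± 0.796), Sycp3 (1.90 ± 1.20) and Ddx4 (0.969 ± 0.557) formed a row in which each neighbouring pair differed by less than the larger of its SDs. Tnp1 (0.171 ± 0.149) and Akap4 (0.0902 ± 0.156) were lowest. In HOIL-deficient mTEChi the order of RPKM levels was Dppa3 (82.5 ± 16.2), Fabp9 (57.5 ± 13.6), Prm1 (4.01 ± 0.172), Tex11 (4.002 ± 0.936), Sycp3 (2.03 ± 0.683), Prm2 (1.96 ± 0.885), Meig1 (1.59 ± 1.23) and Ddx4 (1.50 ± 0.0433), with Tnp1 (0.365 ± 0.631) and Akap4 (0.344 ± 0.567) again lowest. Libraries of Dppa3 and Fabp9 overlapped there too, those of Fabp9 and Prm1, of Tex11 and Sycp3 and of Ddx4 and Tnp1 did not, and the other neighbours in this order did. Meig1, next after Fabp9 and Dppa3 in control mTEChi, lay among the low genes in HOIL-deficient mTEChi, where it overlapped its neighbours. Fabp9 and Dppa3 made up 91.7 to 95.05% of the counts of the 10 genes in control mTEChi libraries and 77.4 to 83.2% in HOIL-deficient ones.

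**Figure D1:**
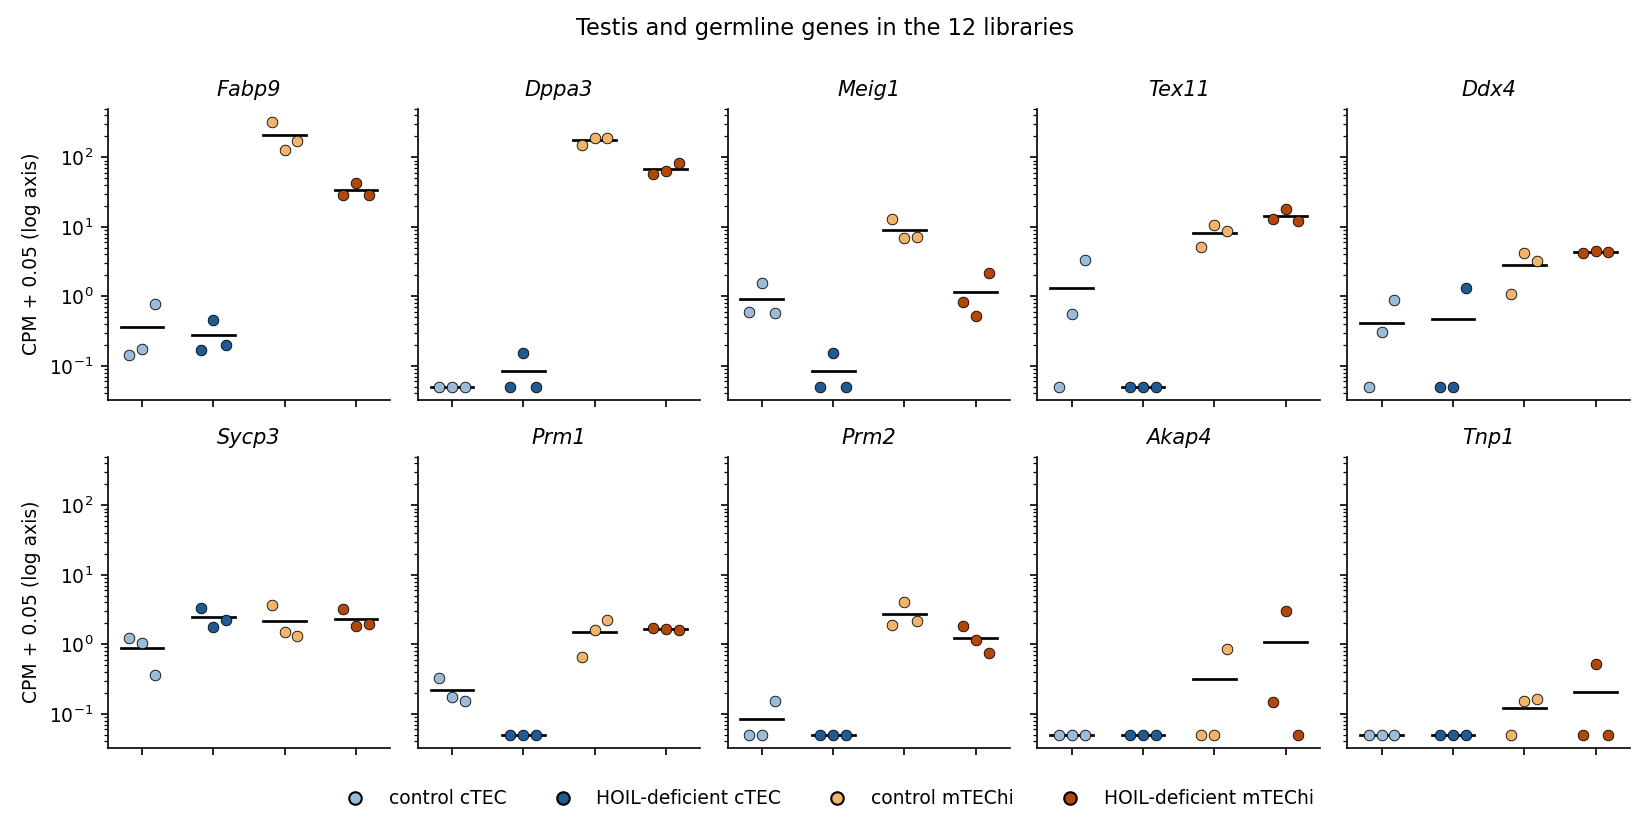
Level of each of the 10 genes in the 12 libraries as CPM plus 0.05 on a log axis, with 1 point per library coloured by group and a line at the group mean; points within a group stand in replicate order. Fabp9, Dppa3 and Meig1 lie lower in all 3 HOIL-deficient mTEChi libraries than in all 3 control mTEChi libraries, as do 20.6% of all tested genes. Most of the 10 genes are at or near 0 in cTECs.

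Of the 8 tested genes, 3 fell in HOIL-deficient mTEChi: Fabp9, Meig1 and Dppa3, a sperm head protein gene, a sperm tail assembly gene and a primordial germ cell gene. None of the 8 rose (edgeR quasi-likelihood test, adjusted p under 0.05 over 19398 genes; at an unadjusted p under 0.05 also 0 rose, and DESeq2 and limma-voom called 0 higher). Over all tested genes, 8.59% were called lower and 11.3% higher in this comparison, 19.9% in all. The median log2 fold change of the 8 was -0.60, against -0.03 over all tested genes. Summed over the 10 genes, the 3 control mTEChi libraries held 348 to 502 CPM and the HOIL-deficient ones 110.5 to 137. The part of the shares of mitochondrial transcripts and Malat1, which differed between the same groups, was not tested.

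Fabp9 counted 3175, 1242 and 1490 reads in control mTEChi replicates 1 to 3, which is 325, 128 and 172 CPM. In HOIL-deficient mTEChi it counted 294, 455 and 410 reads, or 29.0, 42.5 and 28.7 CPM. The groups did not overlap, as was so for 20.6% of all tested genes in this direction. Control replicate 1 was 2.53 times as high as the lowest control library. Fabp9 fell from 209 ± 103 to 33.4 ± 7.87 CPM, a log2 fold change of -2.74 (SE 0.373, edgeR adjusted p = 0.00049). Without control replicate 1 the log2 fold change was -2.22 and the call held (edgeR adjusted p = 0.0023). Fabp9 has close relatives in the fatty acid-binding protein family, and how reads that fit several genes were counted is not given in the sources used here.

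Dppa3 counted 1487, 1841 and 1614 reads in control mTEChi, or 152, 190.4 and 187 CPM. In HOIL-deficient mTEChi it counted 576, 679 and 1175 reads, or 56.8, 63.4 and 82.3 CPM. The groups did not overlap, as was so for 20.6% of all tested genes in this direction, and the spread within each was small beside the gap. Dppa3 fell from 176 ± 21.1 to 67.5 ± 13.2 CPM (log2 fold change -1.45, SE 0.206, edgeR adjusted p = 0.00099). The call held in each of the 15 alternatives run, with log2 fold changes from -1.60 to -1.34. A pseudogene copy, Dppa3-ps, is annotated, so some reads may be shared with it.

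Meig1 counted 124, 67 and 61 reads in control mTEChi (12.7, 6.93 and 7.06 CPM) and 8, 5 and 30 in HOIL-deficient mTEChi (0.789, 0.467 and 2.10 CPM). Every HOIL-deficient library was below every control library, as for 20.6% of all tested genes, with the female replicate 3 the highest of its group. The level fell from 8.89 ± 3.29 to 1.12 ± 0.866 CPM (log2 fold change -3.04, SE 0.684, edgeR adjusted p = 0.0078). Without control replicate 1 the change was -2.65 and the edgeR adjusted p was 0.0504, just past the threshold. Markers of ciliated cells, whose motile cilia share parts with the sperm tail, also changed. Of 6, 3 were called lower (Cfap126, Dnah5 and Rsph1) and 0 higher, against 8.59% and 11.3% of all tested genes. Their summed level was 76.0 to 108 CPM in control and 19.6 to 41.5 CPM in HOIL-deficient mTEChi, with none of the 6 at 0 in either group. The defining factor Foxj1 was at 8.97 ± 6.01 and 5.05 ± 3.28 CPM (log2 fold change -0.93, SE 0.899, edgeR adjusted p = 0.51). The part of these cells in the Meig1 result was not tested.

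The meiotic and germ granule genes did not pass the test in HOIL-deficient mTEChi. Tex11, an X-linked gene for a crossover protein, was at 5.02, 10.7 and 8.68 CPM in control and 13.0, 18.2 and 11.9 CPM in HOIL-deficient mTEChi. All 3 HOIL-deficient libraries were above the control ones, as were those of 23.8% of all tested genes, and the log2 fold change of 0.78 (SE 0.752) had an edgeR adjusted p of 0.51. Ddx4 was at 1.02, 4.14 and 3.12 CPM in control and 4.14, 4.39 and 4.27 CPM in HOIL-deficient mTEChi (log2 fold change 0.59, SE 0.977, edgeR adjusted p = 0.71). The highest control and the lowest HOIL-deficient library of Ddx4 met at 4.14 CPM. Sycp3, the axial element protein of meiotic chromosomes, was at 3.69, 1.45 and 1.27 CPM in control and 3.16, 1.77 and 1.89 CPM in HOIL-deficient mTEChi, overlapping groups (log2 fold change -0.01, SE 0.639, edgeR adjusted p = 0.99; the sign turned in 7 of 15 alternatives).

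The sperm chromatin genes were low in both mTEChi groups. Prm1 counted 6, 15 and 19 reads in control and 17, 17 and 22 in HOIL-deficient mTEChi, or 1.45 ± 0.797 and 1.60 ± 0.069 CPM (log2 fold change 0.10, SE 0.694, edgeR adjusted p = 0.94; -0.27 without control replicate 1). Prm2, its neighbour on chromosome 16, counted 18, 39 and 18 reads in control and 18, 12 and 10 in HOIL-deficient mTEChi. In CPM each HOIL-deficient library of Prm2 was below each control library, as for 20.6% of all tested genes, and the change from 2.65 ± 1.20 to 1.20 ± 0.542 CPM did not pass the test (log2 fold change -1.19, SE 0.731, edgeR adjusted p = 0.28). Tnp1, the transition protein that precedes the protamines, counted 0, 1 and 1 reads in control and 0, 5 and 0 in HOIL-deficient mTEChi. Akap4, the main fibrous sheath protein, counted 0, 0 and 7 reads in control and 1, 32 and 0 in HOIL-deficient mTEChi. For Tnp1 and Akap4 single libraries held most of the reads. Neither gene passed the filter on low counts, so a difference between the groups was not tested.

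**Figure D2:**
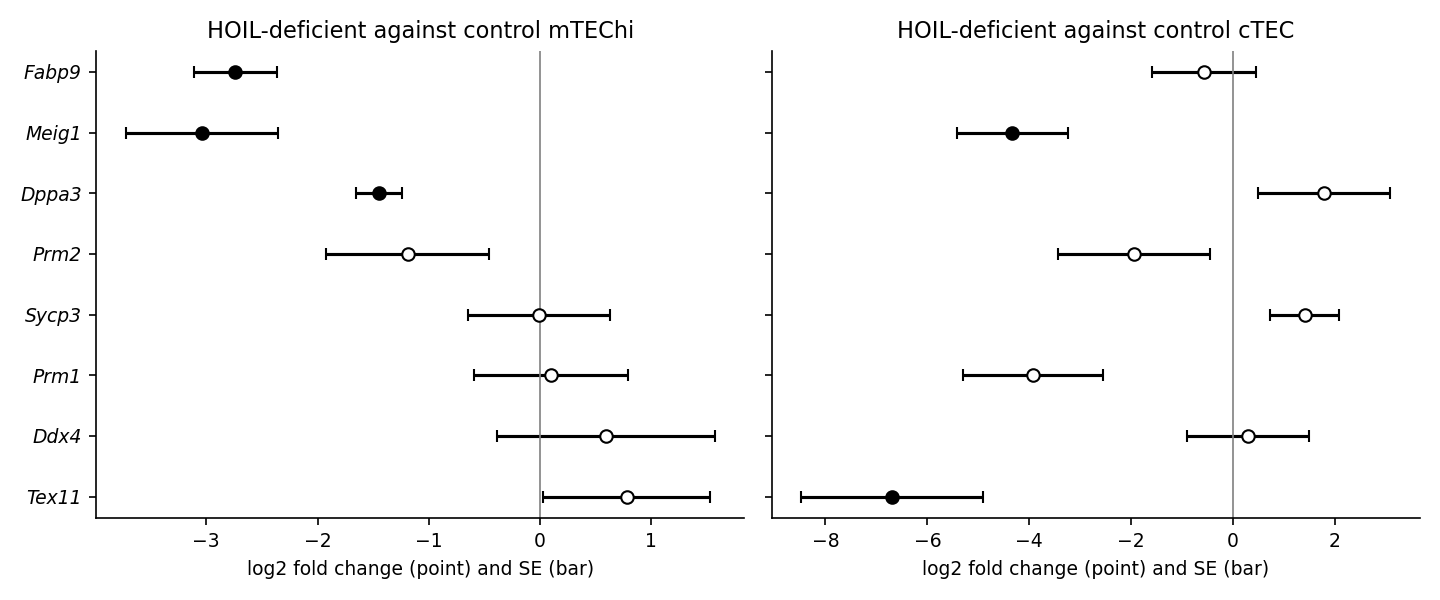
Log2 fold change (point) and SE (bar) of the 8 tested genes, HOIL-deficient against control, in mTEChi on the left and cTECs on the right; filled points passed an edgeR adjusted p of 0.05, and the 2 panels have different scales. Fabp9, Meig1 and Dppa3 are filled on the left and Meig1 and Tex11 on the right, where Tex11, Dppa3, Prm1 and Prm2 had a group with 0 reads and the size of their values depends on the prior count.

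In cTECs the genes were near the limit of detection, at 2.12 to 5.89 CPM summed over all 10 in control and 2.36 to 3.62 CPM in HOIL-deficient libraries. Meig1 and Tex11 were called lower in HOIL-deficient cTECs and none of the 8 higher (edgeR; 0 also had an unadjusted p under 0.05 and rose, and DESeq2 called 0 higher), where 6.02% of all tested genes were called lower and 6.06% higher. Meig1 counted 6, 12 and 5 reads in control and 0, 1 and 0 in HOIL-deficient cTECs, a ratio of 0.0394 in counts per total with an exact 95% interval of 0.000955 to 0.242 (counting error only; edgeR adjusted p = 0.021). Tex11 counted 0, 4 and 32 reads in the control libraries and none in the HOIL-deficient ones. Its mean of 1.27 ± 1.78 CPM was at least 13.3-fold above what a count of 0 allows over the HOIL-deficient group (3 counts, 0.0953 CPM; edgeR adjusted p = 0.030). The Tex11 call was lost in 7 of 14 alternatives: without control cTEC replicate 3 (edgeR adjusted p = 0.15, the highest), without each HOIL-deficient cTEC library in turn, with males only, with the replicate block and with limma-voom. The Meig1 call was lost without control cTEC replicate 2, without HOIL-deficient cTEC replicates 1 or 3, and with males only (highest adjusted p 0.073 over 14 alternatives). Markers of the sorted and of other cells moved in the same comparison. Of the cTEC markers 5 of 6 fell (summed 23575 to 29846 CPM in control, 12424 to 12733 in HOIL-deficient) and of the thymocyte markers 6 of 7 (641 to 2135 and 233 to 495 CPM). Of the endothelial markers 3 of 4 rose (19.8 to 31.5 and 54.0 to 143 CPM) and of the fibroblast and pericyte markers 2 of 4 (31.9 to 447 and 847 to 1582 CPM), and no marker of these 4 lists was at 0. Their part in the cTEC results of Meig1 and Tex11 was not tested.

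Sycp3 was the best represented of the 10 genes in HOIL-deficient cTECs, with 28, 17 and 29 reads against 13, 8 and 3 in control cTECs. The libraries did not overlap (3.32, 1.74 and 2.19 against 1.20, 1.01 and 0.310 CPM), as for 15.9% of all tested genes that were higher in this comparison, and the log2 fold change of 1.41 (SE 0.677) had an edgeR adjusted p of 0.20. Sycp3 shares 660 exon bases with Chpt1 on the opposite strand in the GENCODE M21 annotation. The sources used here do not give the strand setting of the counting, so whether reads of the 2 genes were told apart there is not known. Chpt1, a phospholipid synthesis gene, rose from 32.2 to 69.4 CPM in cTECs (log2 fold change 1.02, edgeR adjusted p = 0.012) and from 17.2 to 36.1 CPM in mTEChi (1.02, edgeR adjusted p = 0.0087). Fabp9 counted 1, 1 and 7 reads in control and 1, 4 and 2 in HOIL-deficient cTECs, Ddx4 0, 2 and 8 and 0, 0 and 17, and Prm1 3, 1 and 1 and 0, 0 and 0 (edgeR adjusted p = 0.81, 0.96 and 0.086). Dppa3 had 1 read in the 6 cTEC libraries and Prm2 had 1, and Akap4 and Tnp1 had 0, which allows up to 0.105 CPM in control and 0.0953 CPM in HOIL-deficient cTECs.

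Testing the difference between the HOIL effects in mTEChi and in cTECs, Tex11 alone of the 8 passed (edgeR adjusted p = 0.034), where 5.97% of all tested genes were called higher, 3.86% lower and 9.84% in all. Its fitted size depends on the prior count, since HOIL-deficient cTECs had 0 reads, and is not given here. The adjusted p was above 0.05 in 14 of 21 alternatives, among them the fit without control cTEC replicate 3, which held 32 of the 36 Tex11 reads in control cTECs. The falls of Fabp9 and Dppa3 in mTEChi were not shown to differ from their changes in cTECs (edgeR adjusted p = 0.26 and 0.32). The log2 difference of Fabp9 was -2.17 (SE 1.20), and that of Dppa3 is not given, since control cTECs had 0 reads.

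In control mice 7 of the 8 tested genes were higher in mTEChi than in cTECs, against 37.8% of all tested genes called higher (26.4% called lower, 64.2% in all), and the exception was Sycp3. Since the filter keeps a gene that is well counted in 1 group alone, this count describes these genes and supports nothing further. Dppa3 was at least 1675-fold higher, with 0 reads in the control cTECs (edgeR adjusted p = 9.8e-10). Fabp9 was higher by 9.44 on the log2 scale (SE 0.582, edgeR adjusted p = 1.5e-08). Prm2 had a count ratio of 76.1 (exact 95% interval 13.2 to 3044). Meig1 (3.50), Prm1 (3.05), Ddx4 (2.99) and Tex11 (2.76) were higher by smaller log2 fold changes. The Tex11 value was 5.17 without control cTEC replicate 3 and 4.27 with limma-voom. The Ddx4 call was lost in 4 of 15 alternatives, without control cTEC replicates 1 or 2 and without control mTEChi replicates 2 or 3 (highest edgeR adjusted p 0.10). For Sycp3 it was 1.46 (SE 0.680, edgeR adjusted p = 0.074; DESeq2 called it).

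The same 7 genes were higher in mTEChi than in cTECs of HOIL-deficient mice, against 32% of all tested genes called higher (16.4% lower, 48.4% in all). Here too the filter kept genes counted well in mTEChi alone, so the count describes these genes and supports nothing further. Tex11 was at least 151-fold, Prm1 at least 16.8-fold and Prm2 at least 12.6-fold higher, each against 0 reads in HOIL-deficient cTECs. Dppa3 had a count ratio of 2177 (exact 95% interval 390.0 to 86030) and Meig1 of 38.5 (6.56 to 1557). Fabp9 was higher by 7.27 (SE 0.591) and Ddx4 by 3.29 (SE 1.10) on the log2 scale. The Ddx4 call was lost without HOIL-deficient cTEC replicates 1 or 2 (edgeR adjusted p = 0.059 and 0.052). Sycp3, at 0.04 (SE 0.636), was close to equal in the 2 cell types.

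**Figure D3:**
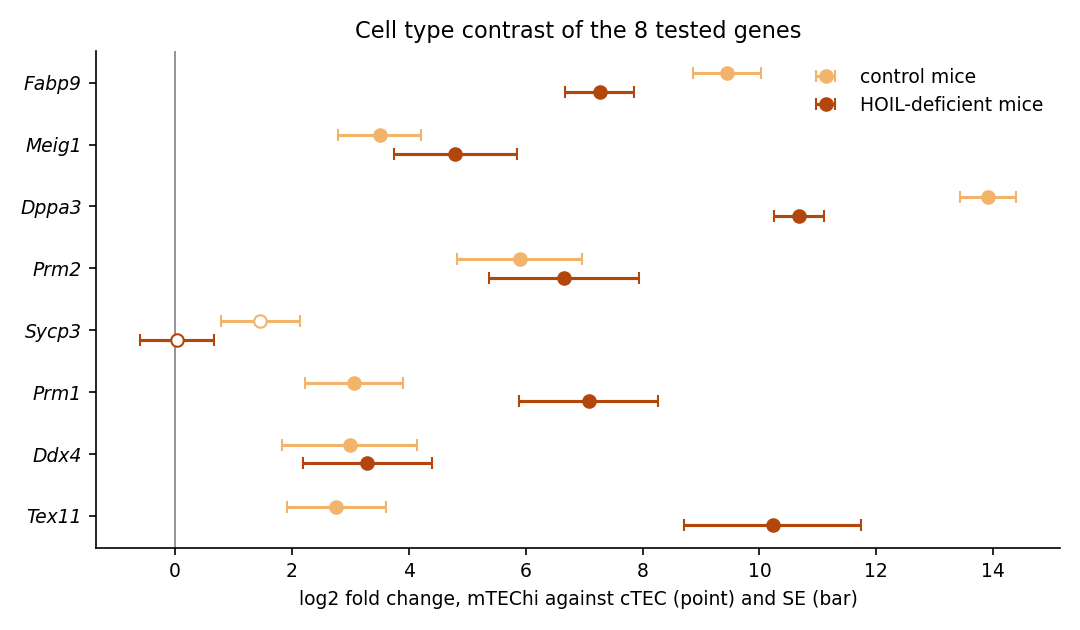
Log2 fold change (point) and SE (bar) of the 8 tested genes in mTEChi against cTECs, for control and for HOIL-deficient mice; filled points passed an edgeR adjusted p of 0.05. Fitted values against a group with 0 reads depend on the prior count, so for Dppa3 in control mice and for Tex11, Prm1 and Prm2 in HOIL-deficient mice the bounds in the text apply; only Sycp3 is unfilled in both.

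The genes next to Fabp9 and Dppa3 on the chromosome were read beside them. Within 100 kb of Fabp9 (chromosome 3, 10193623 to 10197283) lie 3 genes of its family, all 3 higher in control mTEChi than in control cTECs. Over all tested genes, 37.8% were called higher in that contrast. In HOIL-deficient mTEChi 2 of the 3 fell: Pmp2, a myelin fatty acid-binding protein gene, from 60.7, 56.5 and 53.5 to 33.1, 29.1 and 23.0 CPM (log2 fold change -1.07, edgeR adjusted p = 0.014), and Fabp12 from 40.1, 24.1 and 28.7 to 9.96, 19.1 and 10.2 CPM (-1.33, edgeR adjusted p = 0.035). Neither overlapped between the groups, as was so for 20.6% of all tested genes in this direction, and 8.59% of all tested genes were called lower. Fabp4, the fatty acid-binding protein of adipocytes and macrophages, was at 1282 and 1100 CPM in control and HOIL-deficient mTEChi (log2 fold change -0.32, edgeR adjusted p = 0.56), and in cTECs it rose from 33.9 to 214 CPM (2.57, edgeR adjusted p = 0.00096).

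Dppa3 (chromosome 6, 122626424 to 122630271) has 7 genes within 100 kb, of which 5 were higher in control mTEChi than in control cTECs (Gdf3, Apobec1, Mfap5 and Slc2a3 among them) and 0 of 7 changed in HOIL-deficient mTEChi (edgeR; 1 of the 7 had an unadjusted p under 0.05). The shares of all tested genes were 37.8% called higher in that cell type contrast and 19.9% called either way in HOIL-deficient mTEChi. Gdf3, a TGF-beta family gene of pluripotent cells with 0 reads in control cTECs, was at 58.9 and 65.5 CPM in control and HOIL-deficient mTEChi (log2 fold change 0.11). Apobec1, an mRNA-editing enzyme gene, had a log2 fold change of -0.46 (edgeR adjusted p = 0.16). Nanog, the pluripotency factor, was at 0.93 and 0.98 CPM.

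**Figure D4:**
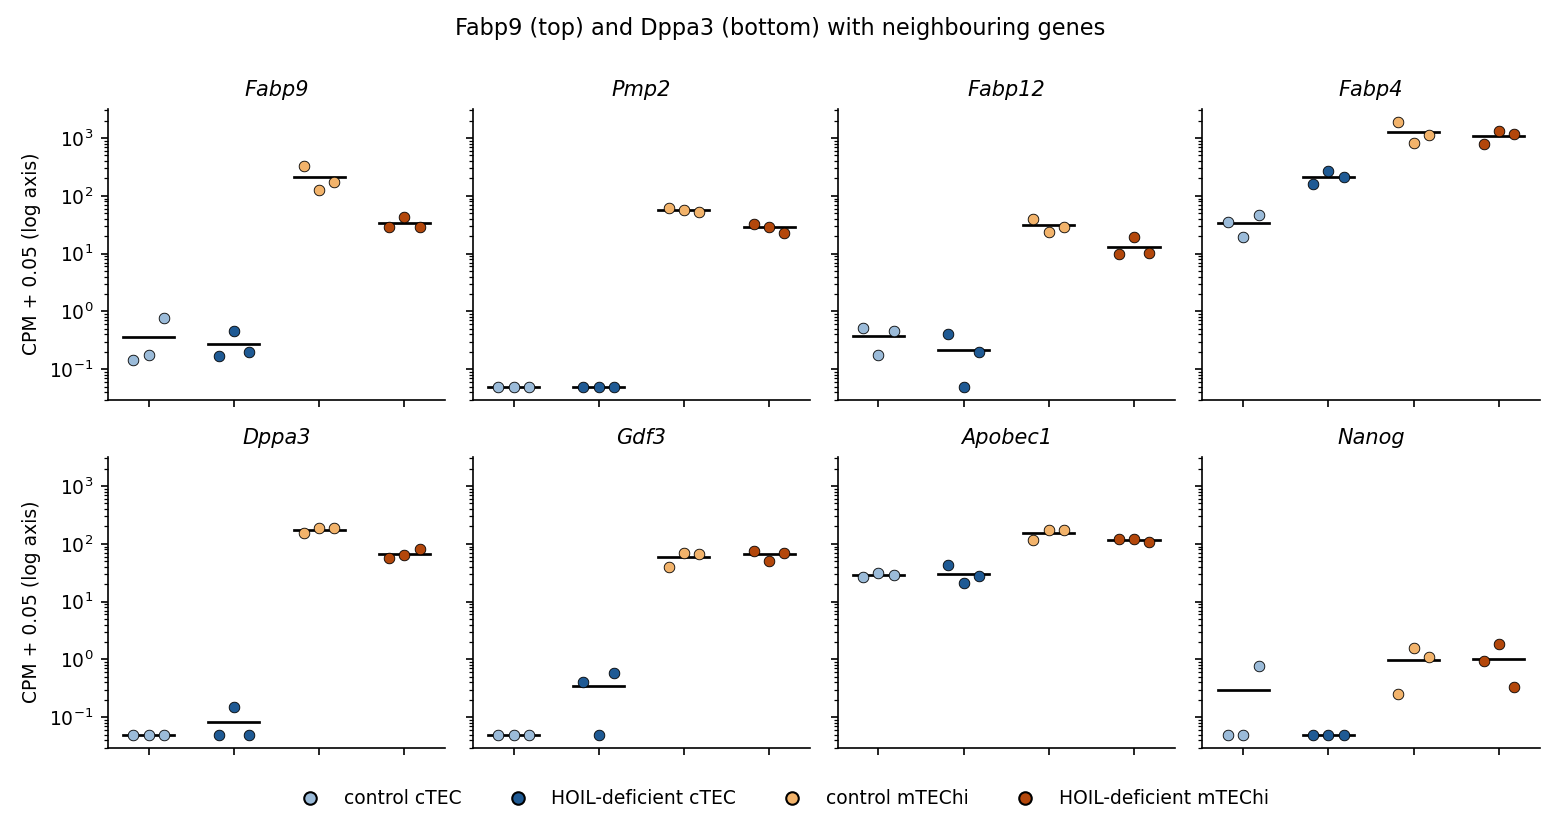
Level in the 12 libraries, as CPM plus 0.05 on a log axis with a line at the group mean, of Fabp9 and its 3 neighbours within 100 kb (top) and of Dppa3 and 3 of its 7 neighbours (bottom). Pmp2 and Fabp12 lie lower in HOIL-deficient than in control mTEChi as Fabp9 does, while Gdf3 at 58.9 and 65.5 CPM overlaps between the mTEChi groups and Dppa3 does not.

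Around the other genes the neighbours differed in direction. Over all tested genes, 8.59% were called lower and 11.3% higher in HOIL-deficient mTEChi. Of 8 genes near Meig1, Acbd7 alone changed in HOIL-deficient mTEChi, from 11.5, 7.14 and 8.10 to 3.45, 1.77 and 3.71 CPM (log2 fold change -1.65, edgeR adjusted p = 0.032); in the control cell type contrast Acbd7 and Olah were higher and Hspa14 lower in mTEChi. Of 3 genes near Ddx4, the cytokine receptor gene Il6st rose in HOIL-deficient mTEChi (log2 fold change 1.69, edgeR adjusted p = 0.0072), and it was lower and Il31ra higher in control mTEChi than in control cTECs. Of 4 genes near Sycp3, 3 rose (Mybpc1 by 2.64, Chpt1 by 1.02 and Dram1 by 0.77 on the log2 scale). In the protamine cluster Tnp2, a transition protein gene, went from 8.50, 6.62 and 8.56 to 3.06, 2.90 and 5.60 CPM. The groups did not overlap, as for 20.6% of all tested genes in this direction, and the change did not pass the test (log2 fold change -1.10, edgeR adjusted p = 0.19). Tnp2, Socs1 and the partner protamine gene were higher in control mTEChi than in control cTECs, as were Ccnb3 near Akap4 and Gdpd2 and Slc7a3 near Tex11, while Dlg3 and Snx12 near Tex11 were lower.

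Some genes followed the pattern of a member over the 12 libraries closely, by the root mean square difference of log2(CPM + 0.5) centred on each gene's mean. Nearest to Dppa3 were Skint9 (0.315), Bcl2a1d (0.360) and Pyy (0.361), at 144, 215 and 232 CPM in control and 89.5, 127 and 88.4 CPM in HOIL-deficient mTEChi. Nearest to Fabp9 were Reg1 (0.371), Wfdc17 (0.508) and Reg3b (0.532), at 95.1, 178 and 152 CPM in control and 21.1, 45.3 and 37.5 CPM in HOIL-deficient mTEChi. Nearest to Tex11 were Grin1 (0.459), Slc10a4 (0.503) and Folr2 (0.612), all under 20 CPM in every group mean. The measure takes in the gap between the cell types, which all these genes share, and is a description; Bcl2a1d has near-identical copies that can share reads.

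A wider list of 126 other germ cell and oocyte genes in 6 roles, 125 of them in the files and 85 tested, was read beside the 10. In control mTEChi against control cTECs 59 of the 85 were higher and 4 lower, with a median log2 fold change of 3.78 (3.49 with the 19 genes that had a group at 0 set to their lower bound) against 0.24 over all tested genes. Over all tested genes 37.8% were called higher and 26.4% lower, and here too the filter kept genes counted well in mTEChi alone, so the count describes the list and supports nothing further. The higher genes included the pluripotency genes Utf1 (1.71 ± 0.306 to 189 ± 15.8 CPM) and Pou5f1 (count ratio 299, exact 95% interval 53.3 to 11858). Oocyte genes among them were Ooep (1.27 ± 0.0731 to 87.1 ± 13.1 CPM) and Zp2 (0.280 ± 0.399 to 81.4 ± 1.07 CPM). The piRNA pathway gene Piwil4 (2.14 ± 0.476 to 33.3 ± 15.1 CPM), the meiotic gene Stra8 and the germ cell gene Tex14, which was listed under the meiotic role, were higher too. Among the 4 that were lower were Spo11, the nuclease that starts meiotic recombination (47.3 ± 18.8 CPM in cTECs to 11.2 ± 2.51 in mTEChi), and the germ granule gene Tdrd5 (21.4 ± 14.2 to 1.59 ± 0.675 CPM).

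In HOIL-deficient against control mTEChi, 2 of the 85 wider germline genes were called higher and 5 lower, which is 8.24% of them against 19.9% of all tested genes, with a median log2 fold change of -0.14 against -0.03. The list and all tested genes were not matched by level, so these shares are a description only. The meiotic gene Mei4, which helps form recombination breaks, rose from 11.6 ± 4.14 to 47.0 ± 15.1 CPM (log2 fold change 1.97, edgeR adjusted p = 0.0019), and Utf1 from 189 ± 15.8 to 298 ± 19.8 CPM (0.60, edgeR adjusted p = 0.0100). Dppa5a, a pluripotency gene with near copies, fell from 21.6 ± 8.58 to 5.05 ± 3.90 CPM (-2.18, edgeR adjusted p = 0.012) and Tcl1 from 4.69 ± 3.38 to 0.440 ± 0.383 CPM (-3.39, edgeR adjusted p = 0.049). The meiotic cohesin gene Rec8 (-1.53), the sperm tail gene Ropn1l (-1.63) and the oocyte gene Ooep (-0.70) fell as well. Of 6 tested genes of testis somatic cells, Inha, the inhibin alpha chain of Sertoli cells, fell from 13.2 ± 2.20 to 3.74 ± 0.175 CPM (-1.89, edgeR adjusted p = 0.0079). Within 1 role the directions were mixed: of 9 tested primordial germ cell and pluripotency genes, to which Dppa3 belongs by function, 1 rose and 2 fell.

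**Figure D5:**
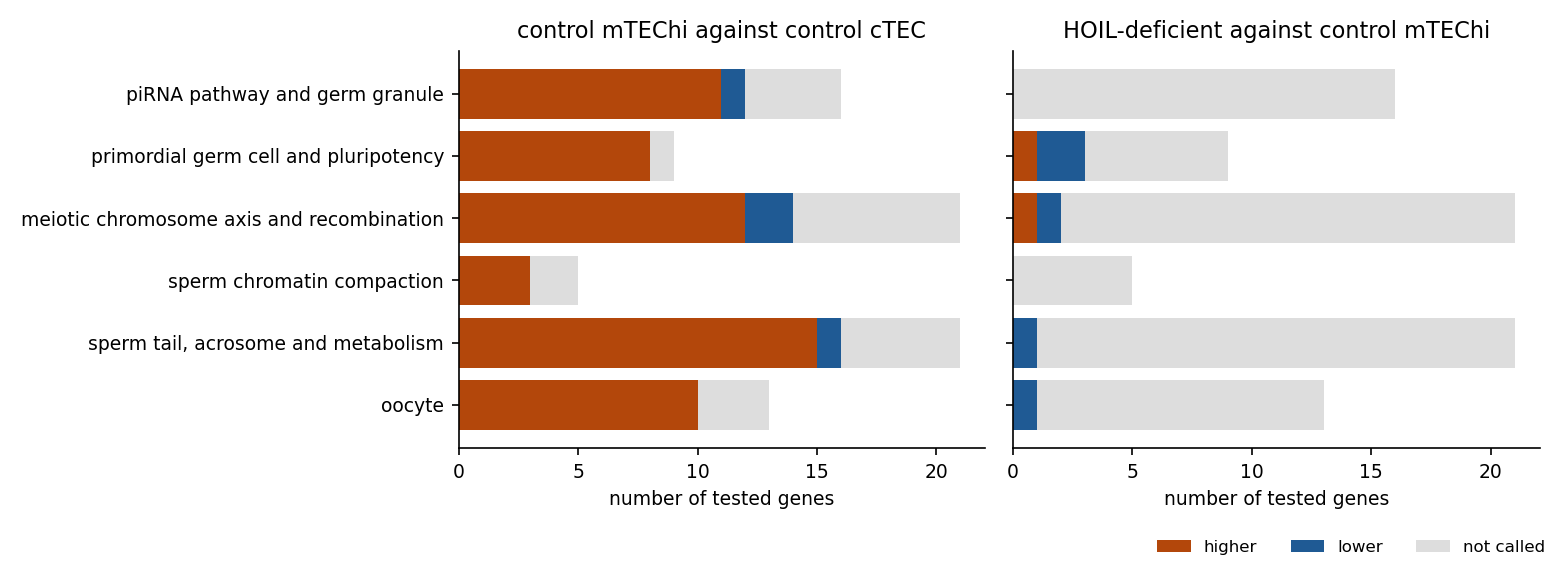
Number of tested genes called higher, called lower or not called (edgeR, adjusted p under 0.05) in 6 roles of the wider germline list, for control mTEChi against control cTECs (left) and HOIL-deficient against control mTEChi (right). Higher calls fill most of the bars on the left, 59 of 85, and 7 of 85 genes are called on the right. Over all tested genes, 37.8% were called higher in the left contrast and 19.9% either way in the right one.

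Neither Aire nor Fezf2, the best known activators of ectopic expression, passed the test in HOIL-deficient mTEChi. Aire was at 770.5 ± 196 CPM in control and 928 ± 127 CPM in HOIL-deficient mTEChi (log2 fold change 0.22, SE 0.352, edgeR adjusted p = 0.71), and Fezf2 at 349 ± 41.3 and 620 ± 52.3 CPM (0.77, SE 0.383, edgeR adjusted p = 0.17). Of 11 tested regulators of ectopic expression, 2 rose, Top2a (log2 fold change 1.20) and Jmjd6 (0.58), and 1 fell, where 11.3% of all tested genes were called higher and 8.59% lower, 19.9% in all. Of 17 germline gene repressors, E2f6 rose from 4.84 ± 3.14 to 14.0 ± 1.45 CPM (log2 fold change 1.50) and the histone methyltransferase gene Ehmt2 fell from 59.9 ± 5.65 to 36.6 ± 5.69 CPM (-0.78), and 0 of 8 germline gene activators changed (edgeR). Called either way were 27.3% of the 11 regulators, 11.8% of the 17 repressors and 0% of the 8 activators, against 19.9% of all tested genes. Markers of the sorted and of other cells also moved in HOIL-deficient mTEChi. Of 7 mTEChi markers 2 were called higher and 0 lower (summed 8522 to 10788 CPM in control, 12006 to 15098 in HOIL-deficient). Of 6 cTEC markers 1 was called higher and 1 lower (1628 to 1992 and 1609 to 1980 CPM). Endothelial markers rose in 3 of 4 (23.4 to 38.3 and 70.6 to 243 CPM). Fibroblast and pericyte markers rose in 1 of 4 (54.1 to 71.5 and 108 to 185 CPM). Of 7 thymocyte markers 0 passed the test (91.2 to 128 and 98.7 to 179 CPM). The fibroblast marker Pdgfra was at 0 in HOIL-deficient mTEChi replicate 3, and no other marker of these lists was at 0 in an mTEChi library. The part of these cells in the falls of Fabp9, Dppa3 and Meig1 was not tested.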

How the data were processed

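The deposited values are whole-number counts of reads per gene with the gene length, 1 file per library; per the submitters' processing notes the authors counted with featureCounts, and the build was mm10. For the aligner, annotation, strand setting and versions: not given in the sources used here. Gene IDs were matched to symbols and positions in a RefSeq table of GRCm38.p6 (25275 of 27179). The 10 genes, the lists and the tests were chosen with earlier results of these data known.

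In R 4.3.3, edgeR 4.0.16 fitted all 12 libraries with 1 coefficient per group (filterByExpr, 19398 genes kept; TMM scaling; robust quasi-likelihood F test), with Benjamini-Hochberg adjusted p over all tested genes called under 0.05. The SE of a log2 fold change is its size divided by the square root of F. Levels are CPM on library totals, and RPKM divides them by the deposited length. For a group at 0 the limit taken was 3 counts in the whole group; ratios with 1 to 3 counts have exact 95% intervals, and both cover counting error only, since reads carry no molecular identifiers. Replicates of a group differed by more than sampling noise (chi-square per gene 6.45 to 58.0). No label states that replicates came from separate animals; p-values therefore measure only the spread between the samples, which may be technical. In simulated data for HOIL deficiency in mTEChi (19398 genes), the changed genes were drawn only from those above 1 CPM on average in mTEChi. Of 40 genes each, 82.5% of those lowered by 3, 52.5% of those lowered by 2 and 22.5% of those lowered by 1 on the log2 scale were recovered. For genes raised by 2 and by 1 it was 87.5% and 22.5%. Recovery of lower genes was not simulated. Alternatives used limma 3.58.1 (voom), DESeq2 1.42.0, other scalings and filters, fewer libraries and block terms.

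Named besides the 10 genes were, from lists by role, up to 8 called genes per direction with the smallest p and up to 3 per role in each of 2 contrasts, called genes within 100 kb of a member, the 3 genes most like each of the 3 members with the highest mean CPM over the 6 mTEChi libraries, Aire, Fezf2 and Rbck1; text gives a selection with values. Some genes of the lists and neighbourhoods enter the counts but are not reported here by name.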

Additional observations from a re-analysis of the deposited data

Results flagged for a closer look

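Tex11 was flagged because the effect of HOIL deficiency differed between mTEChi and cTECs by a test of the difference itself: the mTEChi effect minus the cTEC effect was 7.47 on the log2 scale (SE 1.97, edgeR adjusted p = 0.034). This is a fitted value against a group with 0 reads, so its size depends on the prior count and it is no bound. Tex11 counted 49, 103 and 75 reads in control and 132, 195 and 170 in HOIL-deficient mTEChi, and 0, 4 and 32 reads in control and 0, 0 and 0 in HOIL-deficient cTECs. The difference was 5.06 (edgeR adjusted p = 0.11) without control cTEC replicate 3. Over its 21 alternatives the adjusted p ranged from 0.0011 to 0.12.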

How the results depend on the processing

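Of 653 recomputed log2 fold changes of the 8 tested genes in the 5 comparisons, 593 kept their direction and their side of the threshold, 33 lost the call, 2 gained it and 25 turned sign; the cause was not tested. The turned values belonged to comparisons without a call: Sycp3 in mTEChi (0.010 without a filter, 0.12 with a replicate block, 0.12 with males only, 0.12 with limma-voom, -0.33 to 0.69 leaving out 1 library each) and between the HOIL-deficient cell types (-0.0058 without a filter, -0.28 to 0.34 leaving out 1 library each), Ddx4 in cTECs (-4.81 with males only, -0.54 with limma-voom, -4.87 to 1.84 leaving out 1 library each) and in the difference of effects (-1.25 to 5.48), Prm2 in the difference (-0.15 with DESeq2, -0.49 with limma-voom, -1.19 to 1.27), Meig1 in the difference (-0.15 with males only), Fabp9 in cTECs (-1.22 to 0.88) and Prm1 in mTEChi (-0.27 to 0.50). Where a group had 0 reads, such values depend on the prior count.

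The number of the 8 genes called lower in mTEChi was 3 in all settings but 1, without control mTEChi replicate 1, where it was 2. In cTECs it was 1 with the replicate block and with limma-voom, 0 with males only, and 0 to 2 leaving out 1 library each; with the cTEC groups fitted alone it was 0 because Sycp3 was the only 1 of the 8 to pass the filter. The 1 gene called in the difference was 0 with the replicate block, males only, limma-voom and a block on the letters shared by column headers (chosen after seeing the data), and 0 to 1 leaving out 1 library each. Over all genes, leaving out 1 library each gave 1163 to 1781 higher and 781 to 1311 lower calls in mTEChi (2191 and 1667 with all), 694 to 1143 and 641 to 1172 in cTECs (1175 and 1167), and 498 to 1253 and 454 to 834 for the difference (1159 and 749). Males only gave 722 lower in cTECs and 565 higher and 462 lower for the difference; the cTEC groups alone gave 567 lower. DESeq2 gave 2197 higher and 2559 lower in mTEChi, 1794 higher in cTECs and 1456 lower for the difference. For the difference RLE scaling gave 714 higher and upper-quartile scaling 651; in mTEChi the latter gave 1708 higher and 1979 lower. Scaling moved the median of all genes by up to 0.19 in the control cell type contrast.

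The replicate numbers were not taken to pair samples: same-numbered control libraries of the 2 cell types correlated at 0.00, 0.10 and -0.04, and HOIL-deficient ones at 0.05, 0.08 and 0.04; each HOIL-deficient library correlated best with its own number, and the control libraries did not all do so. With the letter block the cell type call of Prm1 was lost (adjusted p = 0.059). Prm1, Prm2, Sycp3 and Ddx4 had 6 to 61 reads in an mTEChi library, which limits their comparisons.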
